A study of Mus musculus with 36 samples.

Results

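The 8 genes described here are 4 simple keratins (Krt7, Krt8, Krt18 and Krt19), 2 intracellular plaque proteins of cell junctions (Dsp and Jup) and 2 epithelial surface adhesion molecules (Cdh1 and Epcam). They are 8 of the 46078 genes counted, taken by symbol, and were selected on F133V-against-vector values, because Krt8 was nearly lost while Dsp and, in coculture, Krt18 were raised in prostate cancer cells carrying the SPOP mutant F133V. The F133V-against-vector values of these genes are therefore given as a description without a test. Differences with olaparib and with coculture are tested, although they draw on the same libraries. The cancer cells were RM-1-BM, a mouse prostate cancer line, transduced either with SPOP F133V, a mutant of the substrate-binding subunit of a ubiquitin ligase, or with an empty vector. Each was grown alone (monoculture) or with RAW264.7 cells, a mouse macrophage line (coculture), and each was given olaparib, an inhibitor of the DNA repair enzyme PARP, or the vehicle DMSO. This made 8 groups of 3 cancer libraries, named in full as F133V coculture olaparib, F133V coculture DMSO, F133V monoculture olaparib and F133V monoculture DMSO, and the 4 vector groups of the same conditions. A further 12 libraries came from the macrophages of the cocultures, in 4 groups of 3. The labels give no dose, duration or number of transduced clones, and the parental cells keep their own Spop gene. Whether the 3 libraries of a group are separate cultures is also missing from them, so p-values measure the spread between libraries, which may be technical. In these bulk libraries, fewer cells making a transcript and less transcript per cell cannot be told apart.

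Simple epithelia such as the prostate's secretory lining build their intermediate filaments from keratin pairs, and each filament needs a type II keratin (Krt8 or Krt7) joined to a type I keratin (Krt18 or Krt19). A keratin left without a partner is unstable as a protein. The filaments are anchored at desmosomes by desmoplakin, which plakoglobin links to desmosomal cadherins, while E-cadherin (Cdh1) holds neighbouring cells together at adherens junctions. Carcinoma cells that take on a mesenchymal state commonly lose E-cadherin and keratins and fill their cytoskeleton with vimentin.

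The cancer libraries held 32063028 to 43062440 counts on genes and the macrophage libraries 30292309 to 37340425. Spop itself averaged between 96.8 and 114 CPM (counts per 1000000 counts on genes, scaled by edgeR's trimmed mean of M-values) in F133V groups and between 111 and 125 CPM in vector groups, which checks the level and not the mutant allele. By level, F133V cells thus showed no excess of transcript counted on the mouse Spop gene. Whether transcript of the transduced SPOP is counted on that gene cannot be told from the counts. The labelled cell type was not borne out by prostate lineage genes. Of 8 luminal markers, 3 to 5 had no count in a given cancer group, and Krt18 made up nearly all of the summed level in F133V cells. Of 6 basal markers, Krt5 and Krt14 had at most 1 count in a library, and Krt15, described below, supplied most of the sum. The summed level of 5 neuroendocrine markers averaged between 50.4 CPM in F133V coculture DMSO and 167 CPM in F133V coculture olaparib, with no count of Chga in any group. Vim, the mesenchymal filament vimentin, averaged 746 to 1526 CPM. The 12 macrophage markers summed to between 10.1 and 21.1 CPM in cancer libraries, against 10430 to 12340 CPM in macrophages. The highest sums were in 2 of the 3 vector monoculture DMSO libraries, at 20.5 and 21.1 CPM, against 13.1 CPM in the third. Gm26917, an annotated noncoding RNA gene, took 0.487% of gene counts in F133V coculture olaparib, 3.56% in F133V coculture DMSO, 1.43% in F133V monoculture olaparib, 3.84% in F133V monoculture DMSO and 0.164% to 0.261% in vector groups. Its part in the differences below was not tested. Of all genes tested, F133V and vector cells differed in 60% in coculture with olaparib, 79.5% in coculture with DMSO, 67.4% in monoculture with olaparib and 67.7% in monoculture with DMSO.

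Krt8 and Krt18 lie next to each other on chromosome 15, and their upstream sequences are shown because Krt8 was nearly lost in F133V cells and its partner Krt18 was not. In GRCm38 (GENCODE M21) Krt8 spans bases 101996698 to 102004482 on the minus strand and Krt18 bases 102028180 to 102032027 on the plus strand, so that they point away from each other across 23697 bases. Dsp spans 38151294 to 38198577 on the plus strand of chromosome 13 and is shown because it moved with Krt18 in F133V coculture. The windows hold the 250 bases before each RefSeq start, from RefSeq on GRCm38.p6, for 6 of the 8 genes found in its promoter table. They were searched on both strands for the E-box CACCTG bound by the Snail and Zeb repressors, for TATAAA, for the AP-1 site TGANTCA and for the antioxidant response element TGACNNNGC. No match overlapped another. Capitals mark CACCTG. The Krt8 window is chr15:102004343-102004592 on the minus strand, the Krt18 window is chr15:102027966-102028215 on the plus strand, both reaching into the GENCODE gene, and the Dsp window is chr13:38151044-38151293 on the plus strand.
Krt8: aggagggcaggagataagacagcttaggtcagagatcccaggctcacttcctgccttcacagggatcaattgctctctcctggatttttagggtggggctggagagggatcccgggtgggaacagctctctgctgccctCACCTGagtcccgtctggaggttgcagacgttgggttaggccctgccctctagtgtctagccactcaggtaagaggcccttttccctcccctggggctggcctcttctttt
Krt18: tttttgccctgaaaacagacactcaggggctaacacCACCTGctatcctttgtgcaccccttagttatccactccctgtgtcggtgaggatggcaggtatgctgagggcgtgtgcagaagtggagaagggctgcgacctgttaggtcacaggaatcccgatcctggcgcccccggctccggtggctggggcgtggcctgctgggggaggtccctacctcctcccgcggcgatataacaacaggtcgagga
Dsp: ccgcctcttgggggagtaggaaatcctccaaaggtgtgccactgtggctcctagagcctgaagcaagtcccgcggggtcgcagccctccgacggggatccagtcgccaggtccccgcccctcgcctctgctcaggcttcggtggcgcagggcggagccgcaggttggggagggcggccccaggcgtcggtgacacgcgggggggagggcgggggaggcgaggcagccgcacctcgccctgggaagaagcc
The E-box starts at position -111 in the Krt8 window and at -214 in the Krt18 window, counted from the RefSeq start. The Krt8 copy lies inside the GENCODE gene and the Krt18 copy before the GENCODE gene. The Krt7 window, which lies wholly inside the GENCODE gene, held the E-box at -44. The Epcam window held 2 copies, while no copy lay in the Dsp or Jup window. The E-box was present in 17.2% of the 32851 mouse promoters of the same length. None of these 6 windows held the other motifs, which occur in 12.4% (TATAAA), 6.75% (TGANTCA) and 10.2% (TGACNNNGC) of promoters. Guanine and cytosine made up 58% of the Krt8 window, 60.4% of the Krt18 window and 72.4% of the Dsp window, which held 3, 12 and 22 CG dinucleotides in that order.

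Krt8, the type II keratin of simple epithelia, was close to absent in F133V cells under every condition. The counts in F133V cells were 15, 19 and 13 in coculture with olaparib, 9, 17 and 11 in coculture with DMSO, 11, 9 and 8 in monoculture with olaparib, and 6, 17 and 15 in monoculture with DMSO. In vector cells they were 613, 618 and 549 in coculture with olaparib, 589, 677 and 539 in coculture with DMSO, 1363, 1189 and 1196 in monoculture with olaparib, and 947, 916 and 876 in monoculture with DMSO. The highest F133V library (0.473 CPM) stood far below the lowest vector library (15.01 CPM). The fitted log2 difference, F133V over vector, was -5.36 ± 0.12 (SE) in coculture with olaparib and -5.33 ± 0.13 in coculture with DMSO. It was -6.85 ± 0.12 in monoculture with olaparib and -5.99 ± 0.12 in monoculture with DMSO. SE here and below is the log2 difference divided by the square root of edgeR's quasi-likelihood F statistic. Where a large difference rests on few counts, as here, it understates the uncertainty. Without replicate 1 of F133V monoculture DMSO the last value was -5.70. Part of the Krt8 transcript resembles the processed pseudogene Krt8-ps (98.6% identity over 941 bases), which was not counted in the files, so reads of that stretch may have been lost. Krt8 also overlaps the noncoding gene Gm36026 by 101 exonic bases, and the use of strand in counting is not stated.

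Adjusted p-values here and below come from the quasi-likelihood test of edgeR, adjusted by Benjamini-Hochberg over 15962 genes, and a gene was called at 0.05. Within vector cells Krt8 fell with macrophages, and it rose with olaparib in monoculture. It averaged 15.8 ± 0.677 CPM (SD, n = 3) in coculture and 31.4 ± 1.00 CPM in monoculture with olaparib (log2 fold change -0.99 ± 0.06, adjusted p = 1.4e-17). With DMSO it averaged 15.4 ± 0.398 CPM in coculture and 22.9 ± 0.940 CPM in monoculture (-0.57 ± 0.06, adjusted p = 1.6e-10), and in neither pair did libraries overlap. Olaparib raised it in vector monoculture by 0.45 ± 0.05 (adjusted p = 9.2e-09). In vector coculture the olaparib difference was 0.04 ± 0.06 (adjusted p = 0.74), and the change in the olaparib effect with coculture was itself called (-0.42 ± 0.08, adjusted p = 2.9e-04). In F133V cells none of the 4 olaparib and coculture differences was called, with values from -0.41 ± 0.33 to 0.50 ± 0.31 on 6 to 19 counts a library.

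Krt18, the type I partner of Krt8, stayed abundant in F133V cells. Coculture raised it in F133V cells and lowered it in vector cells, and olaparib lowered it in F133V cells. Its F133V values were 116, 112 and 113 CPM in coculture with olaparib, 366, 385 and 359 CPM in coculture with DMSO, 60.9, 66.3 and 60.0 CPM in monoculture with olaparib, and 98.4, 98.2 and 95.6 CPM in monoculture with DMSO. Its vector values were 66.6, 63.6 and 61.5 CPM in coculture with olaparib, 77.5, 79.6 and 78.2 CPM in coculture with DMSO, 126, 129 and 130 CPM in monoculture with olaparib, and 102, 102 and 94.4 CPM in monoculture with DMSO. F133V coculture DMSO stood above every other group, and the monocultures with DMSO overlapped between genotypes. As a log2 difference, F133V over vector, Krt18 was 0.83 ± 0.03 in coculture with olaparib, 2.24 ± 0.03 in coculture with DMSO, -1.04 ± 0.04 in monoculture with olaparib and -0.03 ± 0.03 in monoculture with DMSO. Krt18 was thus higher in F133V cells in coculture and not in monoculture, where it was lower with olaparib. In monoculture with DMSO the sign turned to 0.04 without the 2 vector libraries richest in the macrophage lysozyme Lyz2.

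Coculture raised Krt18 in F133V cells with olaparib (log2 fold change 0.86 ± 0.04, adjusted p = 1.5e-22) and with DMSO (1.92 ± 0.03, adjusted p = 3.0e-35). In vector cells coculture lowered it with olaparib (-1.01 ± 0.03, adjusted p = 2.2e-24) and with DMSO (-0.34 ± 0.03, adjusted p = 9.9e-11). Olaparib lowered Krt18 in F133V coculture (-1.70 ± 0.03, adjusted p = 2.2e-34) and in F133V monoculture (-0.64 ± 0.04, adjusted p = 1.9e-17). The effect in F133V coculture minus that in F133V monoculture was -1.06 ± 0.05 (adjusted p = 2.9e-21). In vector cells olaparib lowered it in coculture (-0.30 ± 0.04, adjusted p = 3.2e-08) and raised it in monoculture (0.37 ± 0.03, adjusted p = 1.2e-11), a difference of -0.66 ± 0.05 (adjusted p = 7.6e-13). Macrophages themselves held 1 to 8 Krt18 counts a library, at most 0.226 CPM.

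**Figure D1:**
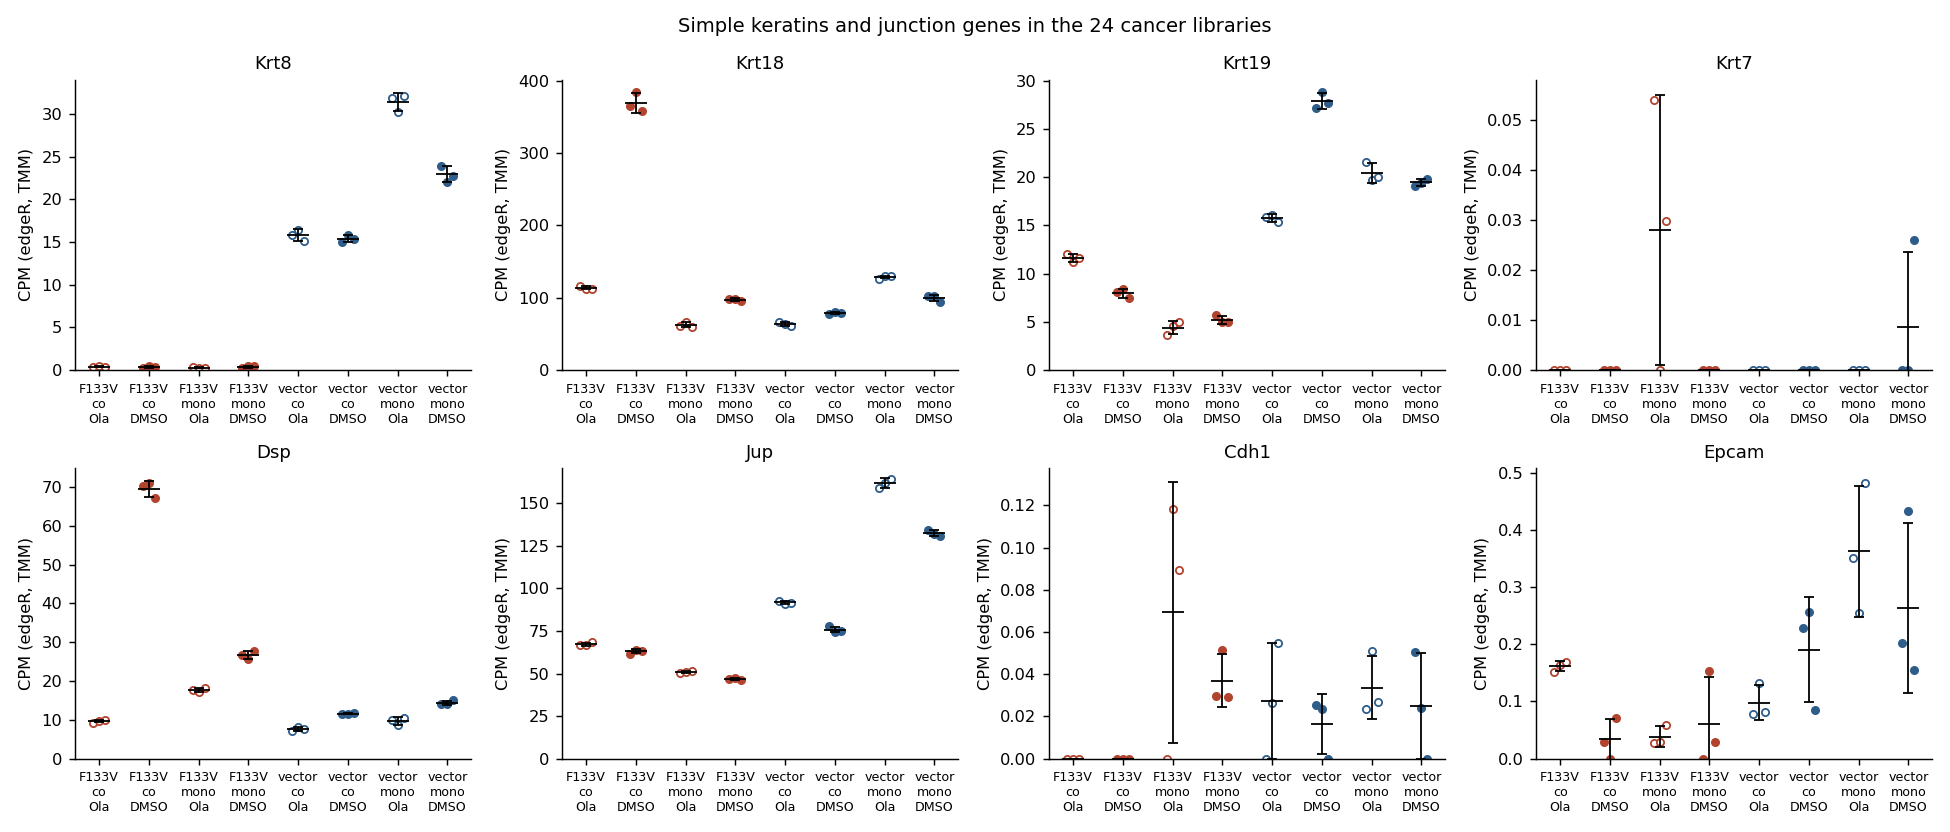
CPM of the 8 genes in each of the 24 cancer libraries (points, 3 per group, open for olaparib and filled for DMSO), with the group mean and SD as bars; each panel has its own axis from 0. Krt8 lies under 0.5 CPM in all F133V libraries, Krt18 and Dsp are highest in F133V coculture DMSO, and Krt7, Cdh1 and Epcam stay under 0.5 CPM in every library.

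The keratin partners were far out of balance in F133V cells once levels were divided by length. Over 28 type I and 23 type II keratin genes, the summed type I level was 141 ± 2.49 CPM per kb of exon in F133V coculture olaparib, 273 ± 10.1 in F133V coculture DMSO, 68.4 ± 3.48 in F133V monoculture olaparib and 91.2 ± 2.13 in F133V monoculture DMSO. Type II keratins summed to 0.341 ± 0.0191, 0.291 ± 0.0658, 0.258 ± 0.0163 and 0.306 ± 0.0730 CPM per kb in the same F133V groups. In vector groups the type II sum lay between 8.29 and 16.3 CPM per kb on average. Type I exceeded type II 414-fold in F133V coculture olaparib, 963-fold in F133V coculture DMSO, 266-fold in F133V monoculture olaparib and 313-fold in F133V monoculture DMSO. The vector ratios averaged 9.14 in coculture olaparib, 7.73 in monoculture olaparib and 9.10 in monoculture DMSO, and were 13.13, 12.93 and 12.95 in the coculture DMSO libraries. The F133V ratios rest on few counts and spread widely, from 775 to 1078 among the F133V coculture DMSO libraries. Krt8 supplied 94.1% to 98.3% of type II keratin transcript in vector groups and 52.7% to 66.4% of the small remainder in F133V groups. Krt18 supplied 94.3% of type I transcript in F133V coculture DMSO and 50.6% in vector coculture DMSO. Its share was 56.2% in F133V and 56.8% in vector coculture olaparib, 63.5% in F133V and 70.9% in vector monoculture olaparib, and 74.3% in F133V and 63.3% in vector monoculture DMSO.

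**Figure D2:**
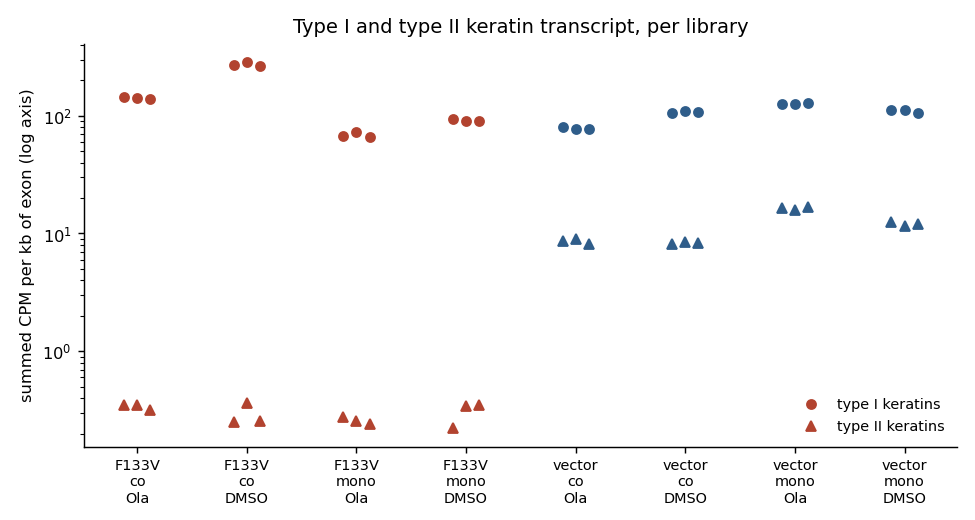
Summed CPM per kb of exon (log axis) of type I keratin genes (circles) and type II keratin genes (triangles) in each cancer library, 3 per group. Type I levels overlap in range between the genotypes, while type II levels are under 0.4 CPM per kb in all F133V libraries and above 8 in all vector libraries.

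Krt7, the other type II keratin of simple epithelia, was close to absent in both genotypes. It had 0 to 2 counts a library, 4 counts in all over the 24 cancer libraries, and did not pass the filter on low counts. In F133V coculture DMSO it had 0 of 113809566 counts, which allows up to 0.0308 CPM (3 counts over the group on the scaled library sizes, counting error only).

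Krt19, a type I keratin that can also partner Krt8, was lower in every F133V group than in its vector counterpart. It read 12.1, 11.3 and 11.6 CPM in F133V coculture olaparib, 8.08, 8.38 and 7.48 in F133V coculture DMSO, 3.64, 4.61 and 4.95 in F133V monoculture olaparib, and 5.70, 4.93 and 5.01 in F133V monoculture DMSO. Vector values were 15.9, 16.1 and 15.3 CPM in coculture olaparib, 27.2, 28.9 and 27.8 in coculture DMSO, 21.6, 19.7 and 20.1 in monoculture olaparib, and 19.1, 19.4 and 19.9 in monoculture DMSO. All 12 F133V libraries stood below all 12 vector libraries. The log2 difference was -0.44 ± 0.06 in coculture with olaparib, -1.80 ± 0.06 in coculture with DMSO, -2.22 ± 0.07 in monoculture with olaparib and -1.91 ± 0.07 in monoculture with DMSO. Coculture raised Krt19 in F133V cells with olaparib (1.41 ± 0.08, adjusted p = 5.8e-18) and with DMSO (0.62 ± 0.09, adjusted p = 3.6e-08). In vector cells it lowered Krt19 with olaparib (-0.37 ± 0.06, adjusted p = 1.4e-06) and raised it with DMSO (0.52 ± 0.05, adjusted p = 2.8e-10). Olaparib moved it opposite ways in the cocultures, up in F133V (0.54 ± 0.07, adjusted p = 1.7e-08) and down in vector (-0.82 ± 0.06, adjusted p = 1.3e-14). A smaller fall with olaparib in F133V monoculture (-0.25 ± 0.10, adjusted p = 0.039) lost its call without replicate 1 of either group (adjusted p = 0.4 and 0.2). It was also lost with scaling by library size alone (adjusted p = 0.16), with no filter on low counts (0.063) and with only the groups compared (0.15). In vector monoculture the difference was 0.07 ± 0.06 (adjusted p = 0.39).

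Krt19 sits in a row of type I keratins on chromosome 11, where Krt13, Krt15 and Krt19 span 31339 bases, and the 3 neighbours did not move alike. Krt13, a keratin of stratified mucosa, averaged 17.1 ± 0.421 CPM in F133V coculture olaparib, 4.34 ± 0.269 in F133V coculture DMSO, 37.6 ± 2.35 in vector coculture olaparib and 57.8 ± 1.77 in vector coculture DMSO. It was lower in F133V than vector cells in coculture with DMSO (-3.74 ± 0.06, adjusted p = 4.4e-36) and rose with olaparib in F133V coculture by 1.98 ± 0.07. Krt15, a basal-layer keratin, averaged 78.1 ± 2.23 CPM in F133V coculture olaparib, 12.1 ± 0.525 in F133V coculture DMSO, 3.95 ± 0.428 in vector coculture olaparib and 7.40 ± 0.104 in vector coculture DMSO. It was higher in F133V than vector cells in coculture with DMSO (0.72 ± 0.07) and in monoculture with DMSO (1.56 ± 0.06). Olaparib raised it in F133V coculture by 2.68 ± 0.05 (adjusted p = 7.8e-34), where Krt18 and Dsp fell. Krt18 and Dsp also fell with olaparib in F133V monoculture and vector coculture, where Krt15 changed by 0.15 ± 0.05 and -0.90 ± 0.09. Of the 47 other keratin genes 25 had no count in any cancer library and 6 passed the filter. In F133V coculture olaparib raised 4 of those 6 and lowered none, where 76.3% of all genes were called.

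**Figure D3:**
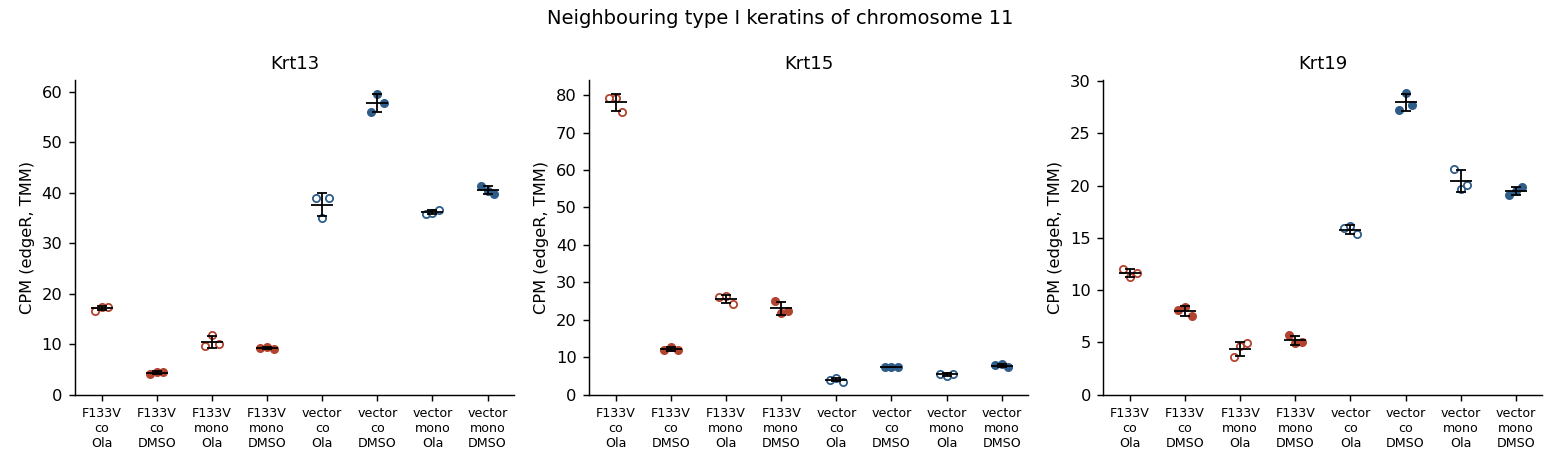
CPM of the neighbouring type I keratins Krt13, Krt15 and Krt19 in each cancer library (points, open for olaparib and filled for DMSO) with group mean and SD. Krt13 and Krt19 are higher in vector groups, and Krt15 is highest in F133V coculture olaparib, between 75.5 and 79.4 CPM.

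Dsp, desmoplakin, which ties keratin filaments to the desmosome, rose with macrophages in F133V cells given DMSO, and with olaparib it was lower in F133V coculture than in F133V monoculture. It read 9.30, 9.73 and 9.92 CPM in F133V coculture olaparib, 70.4, 71.03 and 67.2 in F133V coculture DMSO, 17.7, 17.1 and 18.3 in F133V monoculture olaparib, and 26.7, 25.6 and 27.6 in F133V monoculture DMSO. In vector cells it read 7.13, 8.19 and 7.61 CPM in coculture olaparib, 11.4, 11.6 and 11.8 in coculture DMSO, 9.84, 8.72 and 10.6 in monoculture olaparib, and 14.1, 14.0 and 15.03 in monoculture DMSO. Each F133V group stood above its vector counterpart without overlap, by 0.34 ± 0.07 on the log2 scale in coculture with olaparib, 2.58 ± 0.05 in coculture with DMSO, 0.87 ± 0.06 in monoculture with olaparib and 0.89 ± 0.05 in monoculture with DMSO. Olaparib lowered Dsp in F133V coculture (-2.85 ± 0.05, adjusted p = 8.0e-35) and in F133V monoculture (-0.59 ± 0.05, adjusted p = 8.8e-12), and the difference between these effects was -2.26 ± 0.08 (adjusted p = 2.6e-25). In vector cells it lowered Dsp in coculture (-0.60 ± 0.07, adjusted p = 4.1e-09) and in monoculture (-0.57 ± 0.06, adjusted p = 1.1e-09), and the effects differed by -0.03 ± 0.09 (adjusted p = 0.88). Coculture lowered Dsp with olaparib in F133V cells (-0.87 ± 0.06, adjusted p = 1.5e-15) and raised it with DMSO (1.38 ± 0.05, adjusted p = 3.7e-26). In vector cells coculture lowered Dsp with olaparib (-0.34 ± 0.07, adjusted p = 8.1e-05) and with DMSO (-0.31 ± 0.06, adjusted p = 4.5e-05). Macrophages held 0 to 15 Dsp counts a library. Dsp shares 499 exonic bases with Gm10129 on the other strand, so reads of that stretch cannot be assigned if strand was not used.

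Jup, plakoglobin, which serves both desmosomes and adherens junctions, followed a course unlike Dsp. It read 66.5, 66.6 and 68.4 CPM in F133V coculture olaparib, 61.7, 64.1 and 63.2 in F133V coculture DMSO, 50.3, 50.8 and 51.4 in F133V monoculture olaparib, and 46.8, 47.4 and 46.4 in F133V monoculture DMSO. In vector cells it read 92.6, 91.0 and 91.6 CPM in coculture olaparib, 77.8, 74.6 and 75.1 in coculture DMSO, 159, 162 and 164 in monoculture olaparib, and 134, 132 and 131 in monoculture DMSO. Every F133V library was below every vector library. Coculture raised Jup in F133V cells with olaparib (0.40 ± 0.03, adjusted p = 5.7e-15) and with DMSO (0.43 ± 0.03, adjusted p = 1.2e-15), and lowered it in vector cells with olaparib (-0.82 ± 0.03, adjusted p = 7.7e-26) and with DMSO (-0.80 ± 0.03, adjusted p = 2.8e-25). Olaparib raised it in all 4 settings, by 0.09 ± 0.03 in F133V coculture (adjusted p = 0.0037), 0.12 ± 0.03 in F133V monoculture (adjusted p = 0.0026), 0.27 ± 0.03 in vector coculture (adjusted p = 1.6e-10) and 0.29 ± 0.02 in vector monoculture (adjusted p = 2.6e-12). Per kb of exon Jup exceeded Dsp 10.4-fold in F133V coculture olaparib, 1.36-fold in F133V coculture DMSO, 4.32-fold in F133V monoculture olaparib and 2.64-fold in F133V monoculture DMSO. The vector ratios were 18.1, 9.81, 25.1 and 13.8 in the same order of conditions.

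**Figure D4:**
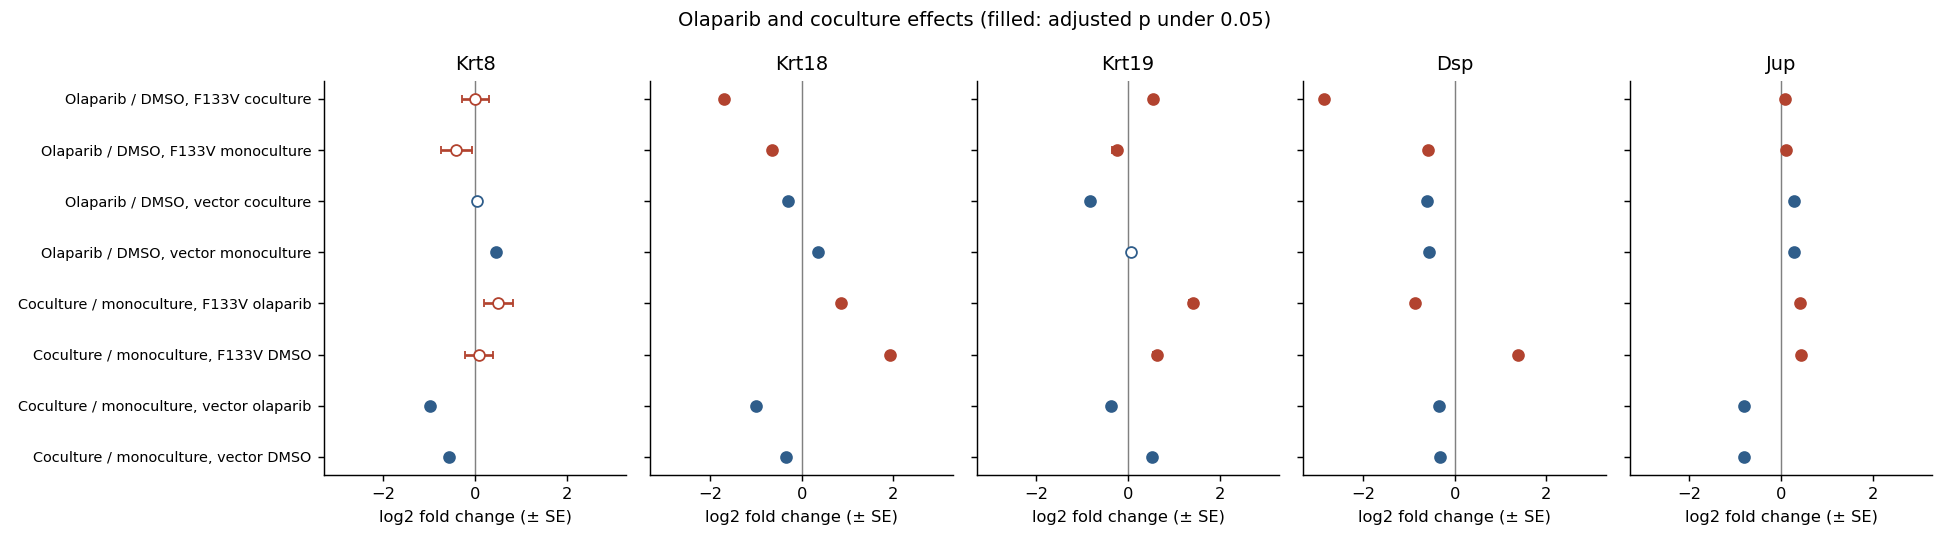
Log2 fold change (± SE) of 5 genes for olaparib against DMSO and for coculture against monoculture, in F133V cells (red) and vector cells (blue); filled points passed the adjusted p of 0.05. Krt18 and Dsp lie furthest left with olaparib in F133V coculture, at -1.70 and -2.85, and Jup lies right of 0 with coculture in F133V cells and left of 0 in vector cells.

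Counted over the 6 tested genes, coculture with DMSO raised 4 and lowered none in F133V cells, where 70.3% of all tested genes were called, 35.6% higher and 34.8% lower. It raised 1 and lowered 4 in vector cells, where 42% were called, 23.4% higher and 18.6% lower. With olaparib, coculture raised 4 and lowered 1 in F133V cells (53.2% of all genes called, 26.7% higher and 26.5% lower). It lowered these 6 in vector cells (44.1% called, 25.5% higher and 18.5% lower). Olaparib raised 3 and lowered 2 in F133V coculture (76.3% called, 39.3% higher and 37% lower). It raised 1 and lowered 3 in F133V monoculture (36.2% called, 18.2% higher and 17.9% lower). It raised 1 and lowered 3 in vector coculture (23.6% called, 12.6% higher and 10.9% lower), and raised 3 and lowered 1 in vector monoculture (30.4% called, 15.3% higher and 15.1% lower). The 4 of 6 called for coculture in F133V cells with DMSO and the 5 of 6 called for olaparib in F133V coculture are near those backgrounds. Krt8 and Epcam passed the filter on low counts through their vector libraries, so the counts over the 6 are descriptions. With scaling by library size alone, the share of calls that were higher was 74.6% in place of 50.5% for olaparib in F133V monoculture and 63.5% in place of 51.5% in F133V coculture. For coculture it was 37.4% in place of 50.2% in F133V cells with olaparib, 34.6% in place of 50.6% in F133V cells with DMSO and 42.2% in place of 55.7% in vector cells with DMSO. The median log2 fold change of the 6 genes was 0.52 in F133V cells and -0.39 in vector cells for coculture with DMSO, beside 0.01 and 0.00 over all genes tested. The olaparib effect differed between coculture and monoculture for 4 of the 6 in F133V cells (64.5% of all genes called) and for 3 in vector cells (13.7% called). The olaparib effect differed between the genotypes for 5 of the 6 in coculture (67.4% called) and 3 in monoculture (24.2% called), and the coculture effect for 6 with olaparib (46.9% called) and 3 with DMSO (62.7% called). Nothing is read from these genotype counts, since they are built from the contrasts that chose the genes. Each of these comparisons shares a group with others of the same genotype.

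Cdh1, E-cadherin, and Epcam, an adhesion molecule of epithelial surfaces, were at or near the limit of detection. Cdh1 had 0 to 4 counts a library and 23 in all, and none in the 6 F133V coculture libraries, which allows up to 0.0243 CPM with olaparib and 0.0308 CPM with DMSO. It did not pass the filter. Epcam had 6, 7 and 7 counts in F133V coculture olaparib, 1, 0 and 2 in F133V coculture DMSO, 1, 1 and 2 in F133V monoculture olaparib, and 0, 6 and 1 in F133V monoculture DMSO. In vector cells it had 3, 5 and 3 counts in coculture olaparib, 9, 11 and 3 in coculture DMSO, 15, 10 and 18 in monoculture olaparib, and 8, 18 and 6 in monoculture DMSO. It passed the filter through the vector libraries. The rise with olaparib in F133V coculture passed the test (adjusted p = 0.013) on these few counts and lost it without replicate 2 of F133V coculture DMSO (adjusted p = 0.083). The rise with coculture in F133V cells given olaparib (adjusted p = 0.029) lost its call when any of 4 libraries was left out, namely replicates 2 and 3 of F133V coculture olaparib (adjusted p = 0.056 and 0.058) and replicates 1 and 2 of F133V monoculture olaparib (adjusted p = 0.095 and 0.076).

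Other parts of the desmosome were measured from a list of 11 genes, of which 7 passed the filter. The membrane cadherins Dsg2, Dsc2, Dsc3 and Dsg3, to which plakoglobin and desmoplakin attach, had at most 4 counts in any cancer library. In F133V against vector coculture with DMSO, 6 of the 7 were higher and 1 lower, where 79.5% of all genes were called, 47.1% of them higher, or 34.7% with scaling by library size alone. Among those higher, Pkp1, Pkp3 and Ppl had at most 74, 46 and 18 counts in any cancer library. The lower gene was Perp (-6.42 ± 1.21), with at most 26 counts. Ppl passed the filter on low counts through F133V coculture DMSO and Perp through vector libraries, the groups where they are high. Their directions here are therefore no test, and the count over the 7 is a description. Pkp2, a plakophilin that recruits desmoplakin, averaged 23.0 CPM in F133V coculture DMSO and 11.6 CPM in vector coculture DMSO (0.99 ± 0.05, adjusted p = 2.6e-19). Pkp4, a plakophilin-like armadillo protein, averaged 232 CPM in F133V coculture DMSO and 123 CPM in vector coculture DMSO (0.91 ± 0.03, adjusted p = 6.5e-29). Evpl, envoplakin, a plakin of the epidermal envelope, averaged 4.57 and 0.620 CPM in the same groups (2.88 ± 0.19, adjusted p = 9.8e-17). With olaparib in F133V coculture, Pkp4 fell (-0.76 ± 0.03) and Evpl fell (-1.95 ± 0.17) while Pkp2 rose (0.45 ± 0.05). Of the 7, 2 were higher and 3 lower, Ppl among the latter, beside 76.3% of all genes called.

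Adherens and tight junction genes outside the 8 moved in both directions. Of 11 tested adherens junction genes, 6 were higher and 4 lower in F133V than vector coculture with DMSO, where 79.5% of all genes were called. Cdh2, N-cadherin, had no count in any cancer library, and no cadherin on the list averaged 1 CPM in any group. Afdn, afadin, which links nectins to actin, averaged 651 CPM in F133V coculture DMSO and 288 CPM in vector coculture DMSO (1.18 ± 0.02, adjusted p = 1.2e-35), and fell with olaparib in F133V coculture (-1.06 ± 0.02). Nectin4, a nectin of epithelial and carcinoma cells, averaged 10.2 ± 1.29 CPM in F133V coculture DMSO and 0.163 ± 0.0360 CPM in vector coculture DMSO (5.94 ± 0.22, adjusted p = 6.6e-25). In F133V coculture it fell with olaparib to 0.168 ± 0.0845 CPM (-5.88 ± 0.21, adjusted p = 6.2e-25). Ctnna1, alpha-catenin, was higher in F133V than vector coculture with DMSO (0.70 ± 0.02) and Ctnnb1, beta-catenin, lower (-0.10 ± 0.02). Of 10 tested tight junction genes, coculture with DMSO raised 9 and lowered 1 in F133V cells (median 0.54, beside 70.3% of all genes called and 35.6% higher). It raised 3 and lowered none in vector cells (42% called and 23.4% higher). Olaparib in F133V coculture lowered 7 and raised 1 (median -0.39, beside 76.3% of all genes called and 37% lower). Those lowered include F11r, the junctional adhesion molecule A (-0.47 ± 0.03), and Cldn12, a claudin (-0.38 ± 0.03). The claudins Cldn3 and Cldn7, common in glandular epithelia, had at most 2 counts a library. Among the tested tight junction genes, Cldn1, Cldn4 and Marveld2 had at most 14, 18 and 40 counts in any cancer library. Scaling by library size alone moved the median of all genes to -0.201 for coculture in F133V cells with DMSO. It moved that median to 0.231 for olaparib in F133V coculture.

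Genes of the hemidesmosome, the structure that holds basal cells to the matrix, moved in both directions. Itga6, the integrin alpha-6 chain that binds laminin, was lower in F133V than vector coculture with DMSO (-1.22 ± 0.02) and rose with olaparib in F133V coculture (1.22 ± 0.02). Of the 7 tested, 5 were lower and 2 higher in F133V than vector coculture with DMSO, where 79.5% of all genes were called. Among 4 tested surface and protease genes, Cd9, a tetraspanin, fell with olaparib in F133V coculture (-1.08 ± 0.03).

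Regulators of epithelial identity also differed in direction. Klf5, a transcription factor of epithelial progenitors, averaged 158 ± 3.70 CPM in F133V coculture DMSO and 28.9 ± 1.56 CPM in vector coculture DMSO (2.45 ± 0.05, adjusted p = 1e-34), and olaparib lowered it in F133V coculture (-1.82 ± 0.04). Elf3, an epithelial ETS factor, was lower in F133V coculture with DMSO (-1.92 ± 0.14, adjusted p = 1.2e-15) and rose there with olaparib (1.94 ± 0.14). Gata3 was higher in F133V cells in coculture with DMSO (1.92 ± 0.07) and in monoculture with DMSO (1.99 ± 0.07). The splicing regulators Esrp1 and Esrp2, which set epithelial isoforms, had at most 10 and 4 counts a library. Of 9 tested mesenchymal genes, 5 were higher and 3 lower in F133V than vector coculture with DMSO, where 79.5% of all genes were called. In monoculture with DMSO 2 were higher and 7 lower, where 67.7% of all genes were called. Vim rose with coculture in F133V cells given DMSO by 0.75 ± 0.02, together with Krt18 and Dsp. Zeb1, a repressor of E-cadherin, was higher in F133V coculture with DMSO by 0.45 ± 0.03, and Snai1, another, lower (-0.76 ± 0.08). Nes, nestin, a filament protein of immature cells, averaged 2.62 CPM in F133V coculture DMSO and 14.0 CPM in vector coculture DMSO (-2.40 ± 0.10). Summed over 8 fibroblast and mesenchymal markers, levels were 2921 CPM in F133V coculture DMSO and 5889 CPM in vector coculture DMSO. They were 3351 CPM in F133V monoculture DMSO and 10110 CPM in vector monoculture DMSO. Fn1, fibronectin, weighs most in these sums, with 4369464 counts over the 24 cancer libraries against 1023249 for Vim. Col1a1 and Col1a2 were at most 0.477 and 0.448 CPM in a cancer library. Vim rose with coculture in F133V cells given DMSO, where the sum was lower.

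**Figure D5:**
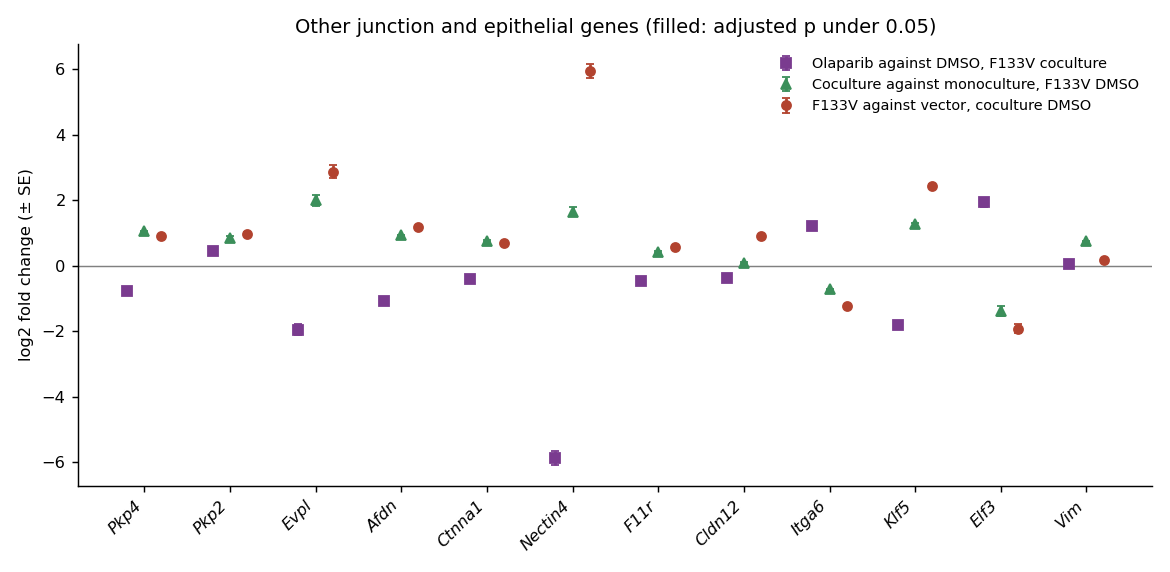
Log2 fold change (± SE) of 12 junction, filament and regulator genes outside the 8, for olaparib against DMSO in F133V coculture (squares), coculture against monoculture in F133V cells with DMSO (triangles) and F133V against vector in coculture with DMSO (circles); filled points passed the adjusted p of 0.05. Nectin4, Evpl and Klf5 lie above 0 in the last 2 and below 0 with olaparib, and Itga6 and Elf3 the other way; the comparisons share the F133V coculture DMSO libraries.

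Across the 8 cancer group means, the genes most like Krt8 among 10416 were Rora, a nuclear receptor (Pearson's r = 0.998), Dpt, the matrix protein dermatopontin (r = 0.996), and Myo1d, an unconventional myosin (r = 0.993), all near zero or low in F133V groups. Among those most like Krt18 were Ing2 (r = 0.981) and Rbm14 (r = 0.976). Those most like Dsp were Zfp568 (r = 0.996), the nucleolar protein Ncl (r = 0.996) and the nucleolar helicase Ddx21 (r = 0.994). Ncl averaged 2327 CPM in F133V coculture DMSO and 1128 CPM in vector coculture DMSO. These values are descriptions over 8 points that share libraries and scaling. The protein-coding neighbours beyond Krt8, namely Krt4, Krt79 and Krt78, had at most 3 counts a library, while those beyond Krt18, namely Eif4b, Tns2 and Spryd3, were expressed in every cancer library.

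The macrophage libraries held little of any of the 8. Jup had 11 to 32 counts a library (at most 0.876 CPM) and Dsp at most 0.430 CPM, both below the lowest cancer library. Krt7, Krt8, Krt19, Cdh1 and Epcam had at most 2 counts.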

How the data were processed

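RNA was sequenced from 24 cancer libraries and 12 macrophage libraries. The deposited files hold raw read counts per gene for 46078 genes, with 5 summary lines each that were left out. STAR, HTSeq, TopHat and DESeq2, with GRCm38, are named in the submitters' processing notes without roles; the use of strand in counting is not given there. Reads outside any gene were 17.1% to 21.5% of the reads listed, and reads not placed uniquely 5.48% to 7.18%. Groups came from the labels. The 24 cancer libraries were fitted together in edgeR 4.0.16 (R 4.3.3), with TMM scaling, edgeR's filter at a minimum count of 10 (15962 genes kept) and quasi-likelihood tests, adjusted by Benjamini-Hochberg within each comparison. The script was tested on simulated data. No libraries were identical. The biological coefficient of variation was 2.61%. DESeq2 1.42.0 and other settings served as alternatives. Lengths came from merged exons of GENCODE M21, and near copies from blastn 2.17.0. The upper limits given for genes without a count in a group cover counting error only. The ± values are SDs between libraries or the SEs defined above. The 8 genes and the gene lists were chosen with earlier results of these data known. Named genes are the 8, other keratins, up to 4 genes per list and comparison with the smallest adjusted p, the 3 most correlated genes for Krt8, Krt18 and Dsp, the 3 nearest coding genes on each side of the Krt8 and Krt18 pair, and Spop. Genes named for their absence, Gm26917 and marker genes were named after their values were seen. A few genes that this rule names are not reported here. In 6 further tests, 2 effects were compared with each other.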

Additional observations from a re-analysis of the deposited data

Results flagged for a closer look

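The results below stood out because the effect of olaparib or of coculture differed between settings when the difference itself was tested with edgeR's quasi-likelihood test and passed an adjusted p of 0.05. Those that set F133V against vector cells are built from the contrasts that chose the genes, so they are listed as descriptions without a p-value. The same cut picked them for this list, so their presence here is not a test result and nothing is read from it. Krt8 and Epcam, moreover, passed the filter on low counts through their vector libraries. All values are differences of log2 fold changes.

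The olaparib effect in coculture minus that in monoculture was, in F133V cells, -1.06 for Krt18, 0.79 for Krt19, -2.26 for Dsp and 2.99 for Epcam. In vector cells it was -0.42 for Krt8, -0.66 for Krt18 and -0.90 for Krt19. Krt19 thus moved opposite ways in the genotypes, with adjusted p = 3.6e-07 in F133V and 7.0e-11 in vector cells. The Epcam value had an adjusted p of 0.043 on 0 to 7 counts a library and lost its call when any of 8 single libraries was left out. Without replicate 2 of F133V monoculture DMSO it was 1.07 (adjusted p = 0.69).

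The coculture effect in F133V cells minus that in vector cells was, with olaparib, 1.49 for Krt8, 1.87 for Krt18, 1.78 for Krt19, -0.53 for Dsp, 1.22 for Jup and 3.84 for Epcam. With DMSO it was 2.27 for Krt18, 1.69 for Dsp and 1.23 for Jup. The Krt8 value sets 8 to 19 counts a library in F133V cells with olaparib against 549 to 1363 in vector cells with olaparib.

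The olaparib effect in F133V cells minus that in vector cells was, in coculture, -1.41 for Krt18, 1.36 for Krt19, -2.25 for Dsp, -0.18 for Jup and 3.25 for Epcam. In monoculture it was -1.01 for Krt18, -0.32 for Krt19 and -0.17 for Jup. Gm26917 and macrophage marker levels, which differ between these groups as given above, were not tested as a part of any of these values.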

How the results depend on the processing

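Of 187 results, 33 were counts of calls. Without the 2 vector monoculture DMSO libraries with the most Lyz2 (3.38 and 4.36 CPM), calls over all genes fell to 2952 for olaparib in vector monoculture (4857 with all libraries) and to 1161 for the change of the olaparib effect with coculture in vector cells (2186). One vector monoculture DMSO library then stands alone and is assumed to vary like the others. The same setting turned Krt18 in F133V against vector monoculture with DMSO to 0.043 and Krt15 for coculture in vector cells with DMSO to 0.0099. Scaling by library size alone called 1 of the 8 genes, not 3, for the genotype difference in the olaparib effect in monoculture, and turned that of Jup in coculture to 0.022. It moved the median of all genes to 0.231 for olaparib in F133V coculture, -0.201 for coculture in F133V cells with DMSO and -0.311 for F133V against vector coculture with DMSO, where Krt18 was then 1.98, Krt19 -2.06, Dsp 2.33 and Jup -0.52. The other counts of calls stayed within 1.5 times under these settings, the RLE size factors, DESeq2, no filter, only the groups compared, and each library left out in turn. Same-numbered libraries did not deviate together (correlations from -0.0616 to 0.0562). With replicate number as a block, calls over all genes were between 0.999 and 1.03 times those reported, for example 5822 against 5772 for olaparib in F133V monoculture, and the counts among the 8 genes were equal. For the macrophages, library size alone was added after seeing the data. The low counts of Krt7, Cdh1, Epcam and, in F133V cells, Krt8 limit what depth can show.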
